A study of Mus musculus with 12 samples.

Results

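The ADAM, ADAMTS and matrix metalloproteases are zinc proteases of the cell surface and the extracellular matrix, and the tissue inhibitors of metalloproteases (TIMPs) are their natural inhibitors. The genes described here were all rows of a mouse gene count table with a symbol of the form Adam, Adamts, Adamtsl, Mmp or Timp followed by a number, 83 of 31332 rows. They comprised 32 Adam, 19 Adamts, 5 Adamtsl, 23 Mmp and 4 Timp genes. The rule itself used the symbols and no measured value, although earlier results of these data were known when members, lists and tests were chosen.

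RNA was sequenced from thymic epithelial cells of C57BL6/J mice at 2 months of age. The 4 groups held 3 libraries each. Cre mTEC (libraries 4 to 6) were medullary epithelial cells from mice with floxed alleles of both LXRalpha (gene Nr1h3) and LXRbeta (gene Nr1h2) plus a FoxN1-Cre transgene, and control mTEC (libraries 1 to 3) carried the same floxed alleles without Cre. Cre cTEC (libraries 10 to 12) and control cTEC (libraries 7 to 9) were cortical epithelial cells of these genotypes. LXRs bind oxysterols, oxidised forms of cholesterol, and control cholesterol efflux and lipid synthesis. FoxN1 drives the Cre in thymic epithelium of both kinds, and since the controls carry no Cre, loss of the receptors and presence of the Cre cannot be told apart. Nothing in the labels ties a library to an animal, so p-values measure only the spread between libraries. These are bulk libraries, in which fewer cells of a type and less RNA per cell cannot be told apart.

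ADAM proteases are mostly membrane proteins that cut, or shed, the outer parts of other membrane proteins such as cytokines, growth factors and Notch ligands and receptors. ADAMTS proteases are secreted and cut proteoglycans, procollagens and microfibril proteins, while the ADAMTS-like (ADAMTSL) proteins resemble them without a protease domain. MMPs cut collagens, gelatin and other matrix proteins, and TIMPs bind and block them. In the thymus these enzymes act on the matrix and the membrane ligands that developing T cells meet in cortex and medulla.

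Total counts ran from 4804697 to 11159013 per library, so that 1 count stood for 0.0896 to 0.193 CPM (counts scaled to a common library total with TMM factors). Library 11, a Cre cTEC library, had the fewest counts, and its pair with library 10 had the lowest correlation within any group, 0.976 on log2(CPM + 1) across genes. Nr1h2 averaged 78.9 ± 14.6 CPM in Cre mTEC and 122 ± 11.3 CPM in control mTEC, and 114 ± 11.3 CPM in Cre cTEC and 172 ± 17.4 CPM in control cTEC (SD, n = 3 each). It fell with Cre in mTEC (edgeR adjusted p = 0.0158) and in cTEC (0.00566), whereas Nr1h3 passed in neither (adjusted p = 0.67 in mTEC and 0.869 in cTEC). The labels do not give the floxed exons, so counts over a whole gene are a limited check of the deletion. The summed level of 10 cortical markers was 9778 to 20966 CPM in Cre cTEC and 9136 to 10984 CPM in control cTEC, against 1914 to 2726 CPM in Cre mTEC and 2246 to 2518 CPM in control mTEC. The summed level of 10 medullary markers was 5979 to 6888 CPM in Cre mTEC and 7067 to 7353 CPM in control mTEC, without overlap. In cTEC it was 1301 to 1521 CPM in Cre and 2328 to 2629 CPM in control libraries. The medullary markers Aire and Fezf2 averaged 638 and 453 CPM in Cre mTEC and 862 and 521 CPM in control mTEC, while Ccl21a, another medullary marker, had at most 0.30 CPM in any library. Foxn1 itself was lower in Cre libraries, at 110.6 ± 47.8 CPM in Cre cTEC against 317 ± 42.4 CPM in control cTEC, and at 82.3 ± 64.4 CPM in Cre mTEC against 254 ± 32.2 CPM in control mTEC (adjusted p = 0.00851 and 0.0216).

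Of the 83 genes, 63 passed the filter on low counts and were tested. The 20 that did not pass were 15 Adam genes known mainly from the male germ line, and Mmp1a, Mmp1b, Mmp10, Mmp21 and Mmp27. These 20 had between 12 and 76 counts over all 12 libraries together, and at most 2.32 CPM in any library. Among them, Adam1b, Adam6a and Adam6b, Adam26a and Adam26b, and Mmp1a and Mmp1b have like-named relatives within the family, as has Adam1a, which was tested. How alike their sequences are was not measured, and reads that match several copies may be misplaced or left out.

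Divided by the length of the longest annotated transcript, the family was led by few members. In Cre mTEC the highest were Mmp9 (188 CPM per kb), a gelatinase that cuts denatured collagen and type IV collagen, and Mmp14 (154 CPM per kb), a membrane-type MMP that activates the other gelatinase, MMP2. In control mTEC the order of these was turned round, with Mmp14 at 139 and Mmp9 at 127.5 CPM per kb, followed in both genotypes by Timp3, a matrix-bound inhibitor, and Adam8, a sheddase known from leukocytes. In Cre cTEC Mmp14 and Timp2 stood level at 135 CPM per kb each, ahead of Mmp9 (116) and Timp3 (105 CPM per kb). In control cTEC Timp2 led at 226 CPM per kb, ahead of Mmp14 (133), Timp3 (86.1), Mmp2 (60.9), Adam28 (53.2), Adam10 (43.0) and then Mmp9 (39.3 CPM per kb). Mmp9 thus had 0 members above it in Cre mTEC and 1 in control mTEC, and 2 in Cre cTEC and 6 in control cTEC. Summed over the family, Mmp genes came to 1091 ± 102 CPM in Cre cTEC against 826 ± 25.4 CPM in control cTEC, and Timp genes to 1004 ± 77.3 CPM in Cre cTEC against 1251 ± 20.8 CPM in control cTEC (SD, n = 3 each). In the medulla, Mmp genes summed to 1348 ± 98.7 CPM in Cre mTEC and 1082 ± 23.5 CPM in control mTEC, and Timp genes to 725 ± 42.5 and 786 ± 37.1 CPM in the same groups. The 3 Cre and the 3 control libraries did not overlap in the Mmp and Timp sums of the cortex, nor in the Mmp sum of the medulla. Single genes weigh heavily in these sums. Mmp9 made up 11.2% of the CPM of all members in Cre cTEC and 3.80% in control cTEC, and Timp2 15.2% and 25.5%. In mTEC, Mmp9 made up 16.8% in Cre and 11.7% in control cells. In cTEC, 7 of 18 tested Mmp genes and 3 of 4 Timp genes had positive log2 fold changes. The cortical sums thus do not describe most genes of either family.

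The first question is what the family did in cortical cells whose floxed receptor genes were exposed to Cre. Here 9 members rose and 4 fell of 63 tested, with an edgeR adjusted p under 0.05. That is 20.6% of the members, where 9.01% of all 17268 genes tested passed, 5.62% higher and 3.38% lower. Those higher were 2 MMPs (Mmp9 and Mmp15), 5 ADAMTS genes (Adamts3, Adamts7, Adamts8, Adamts9 and Adamts10), Adamtsl1 and Adam19, and those lower were Timp2, Adamts19, Adamtsl3 and Adamtsl5. The median log2 fold change of the 63 was -0.06, against -0.02 for all genes, and the members lay on both sides of 0: 29 of 63 were positive, and 22 (34.9%) had an unadjusted p under 0.05, against 19.9% of all genes. The median of the tested Mmp genes was -0.41 and that of the Adamts genes 0.17.

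Promoter sequences are shown for Mmp15, Timp2, Adamts9 and Adamtsl5, the members that passed in cTEC under each alternative processing listed in the closing section and that have an entry in RefSeq's promoter table (GRCm38.p6). Each is the 250 bases before the annotated start, written 5′ to 3′ on the gene's strand; capitals mark GC boxes (GGGCGG on either strand) and the half-site AGGTCA to which many nuclear receptors bind, on either strand. They are Mmp15 at chr8:95352046-95352295 (plus strand), Timp2 at chr11:118355412-118355661 (minus strand), Adamts9 at chr6:92943535-92943784 (minus strand) and Adamtsl5 at chr10:80348449-80348698 (minus strand).
Mmp15: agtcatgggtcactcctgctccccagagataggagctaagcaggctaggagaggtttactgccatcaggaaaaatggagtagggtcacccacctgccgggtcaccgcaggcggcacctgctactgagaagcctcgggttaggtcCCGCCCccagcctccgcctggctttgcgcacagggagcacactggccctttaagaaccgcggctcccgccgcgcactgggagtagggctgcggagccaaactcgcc
Timp2: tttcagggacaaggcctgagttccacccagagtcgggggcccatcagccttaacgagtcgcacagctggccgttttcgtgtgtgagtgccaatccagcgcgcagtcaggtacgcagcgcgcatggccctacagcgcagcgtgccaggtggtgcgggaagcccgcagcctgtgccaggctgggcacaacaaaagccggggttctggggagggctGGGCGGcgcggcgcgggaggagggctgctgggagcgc
Adamts9: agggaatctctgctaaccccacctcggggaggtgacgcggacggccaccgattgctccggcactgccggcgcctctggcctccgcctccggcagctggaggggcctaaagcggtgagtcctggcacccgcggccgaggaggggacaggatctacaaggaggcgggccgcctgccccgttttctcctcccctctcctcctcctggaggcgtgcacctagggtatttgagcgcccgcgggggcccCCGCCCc
Adamtsl5: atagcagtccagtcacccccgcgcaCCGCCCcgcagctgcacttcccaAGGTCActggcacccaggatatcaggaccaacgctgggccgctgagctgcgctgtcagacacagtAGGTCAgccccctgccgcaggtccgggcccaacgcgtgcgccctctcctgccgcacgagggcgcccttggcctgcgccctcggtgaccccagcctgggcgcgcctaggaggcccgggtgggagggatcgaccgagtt

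Of the 83 members, 52 had an entry, in 57 windows. The LXR response element, searched as 2 copies of AGGTCA in the same direction spaced by any 4 bases on either strand, was in 0 of the 57 windows with all its letters, and in 5 of all 32851 windows of the table (0.0152%). The GC box was in 24 of 57 windows (42.1%), against 32.7% of all windows, and the half-site in 9 of 57 (15.8%), against 14.0%. Adamtsl5, which fell in Cre cTEC, held 2 half-sites, and the Mmp15, Timp2 and Adamts9 windows held 0. Such letter matches describe the windows only, and nothing follows from them about binding.

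Mmp9 rose most among the MMPs. It stood at 444, 282 and 379 CPM in Cre cTEC, against 120.5, 149.9 and 104 CPM in control cTEC. Every Cre library lay above every control library, with library 11 the lowest of the Cre libraries. The log2 fold change was 1.57 (SE 0.16, adjusted p = 5.3e-06), a 2.96-fold rise. Mmp15, a membrane-type MMP that like MMP14 can activate MMP2, was at 32.7, 28.6 and 30.0 CPM in Cre cTEC, against 11.4, 11.6 and 9.38 CPM in control cTEC. The Cre libraries lay close together and far above the controls (log2 fold change 1.51, SE 0.15, adjusted p = 5.32e-06). Both calls held without any 1 library, with values of 1.41 to 1.72 for Mmp9 and of 1.42 to 1.56 for Mmp15.

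Mmp14, the membrane-type MMP with the highest level per kb in cTEC, showed no such difference. It was at 442, 411 and 461 CPM in Cre cTEC, against 426, 426 and 436 CPM in control cTEC, and the groups overlapped. The gelatinase Mmp2 averaged 197 ± 22.4 CPM in Cre cTEC and 187 ± 8.15 CPM in control cTEC (SD, n = 3 each), again with overlap. Mmp11, stromelysin 3, was lower in each Cre cTEC library, at 9.59, 11.2 and 12.5 CPM against 17.0, 15.7 and 17.1 CPM in control cTEC, and did not pass (adjusted p = 0.0623). Mmp3, stromelysin 1, varied within groups, at 0.669, 11.0 and 4.08 CPM in Cre cTEC and 1.38, 1.51 and 6.97 CPM in control cTEC. Mmp8, Mmp12 and Mmp13, a neutrophil collagenase, the macrophage elastase and collagenase 3, averaged under 5 CPM in both cTEC groups and did not pass.

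Timp2, which inhibits MMPs and also takes part in the activation of MMP2 by MMP14, was at 506, 485 and 513 CPM in Cre cTEC, against 899.6, 808 and 805 CPM in control cTEC. The groups were far apart and each was tight. It fell by 0.74 on the log2 scale (SE 0.13, adjusted p = 0.000882), and by 0.68 to 0.77 without any 1 library. Timp3 was at 554, 421 and 510.0 CPM in Cre cTEC against 348, 411 and 461 CPM in control cTEC, and the groups overlapped (log2 fold change 0.28, SE 0.13, adjusted p = 0.218). Timp1, known to bind the proenzyme of MMP9, averaged 7.35 ± 3.24 CPM in Cre cTEC and 6.67 ± 3.22 CPM in control cTEC, and Timp4 had at most 1.16 CPM in any cTEC library. In the RefSeq annotation the gene bodies of the 4 Timp genes, introns included, overlap those of Syn1, Cep295nl, Syn3 and Syn2. The library kit marks no strand, so reads from any shared exon could not be told apart. Whether exons are shared was not examined.

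**Figure D1:**
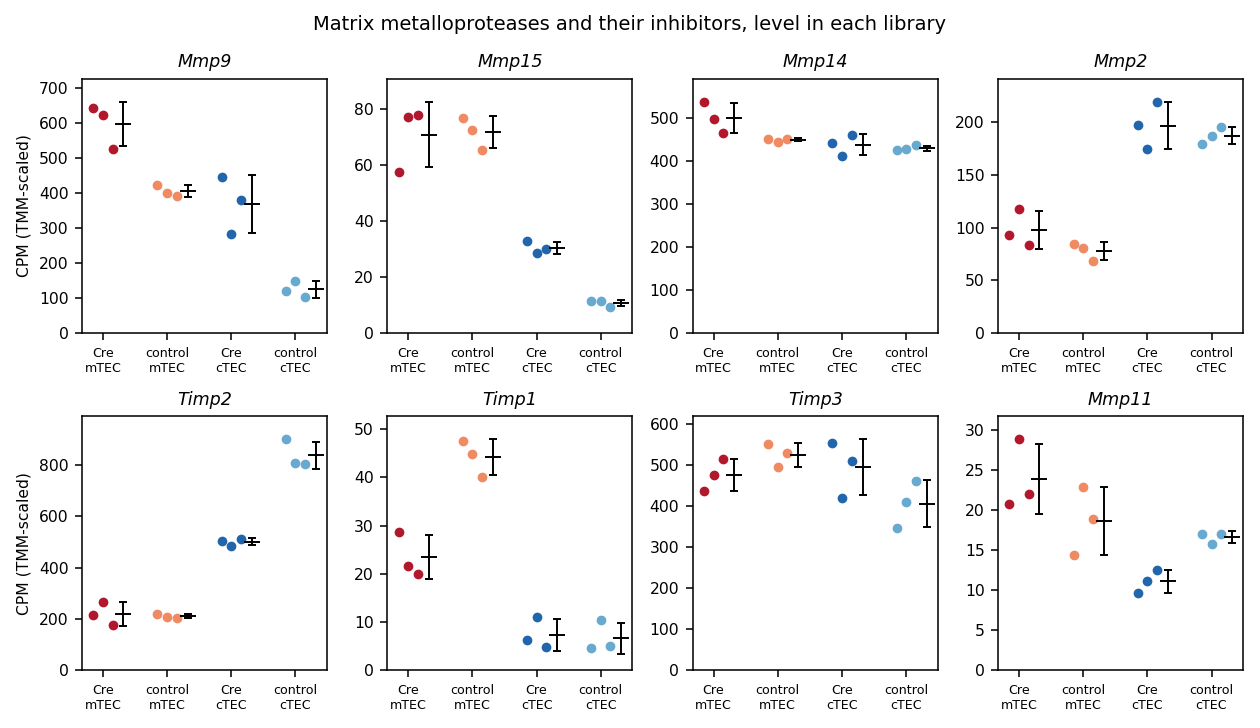
TMM-scaled CPM of 8 MMP and TIMP genes in each of the 12 libraries, by group (points: libraries; bars: mean ± SD of 3). In cTEC, Mmp9 and Mmp15 lie higher and Timp2 lower in all 3 Cre libraries than in all 3 controls, Timp1 is lower in Cre mTEC, and Mmp14 is level.

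Among the ADAMTS proteoglycanases, Adamts9, which cuts versican, was at 51.9, 42.1 and 40.7 CPM in Cre cTEC, against 29.6, 32.2 and 27.2 CPM in control cTEC. The groups did not overlap, and the gene rose (log2 fold change 0.61, SE 0.13, adjusted p = 0.00418; 0.48 to 0.68 without any 1 library). Adamts8 was at 3.79, 6.75 and 5.54 CPM in Cre cTEC, against 3.10, 2.51 and 1.99 CPM in control cTEC (log2 fold change 1.06, SE 0.31, adjusted p = 0.0382). That call was lost when library 1, 2, 3, 7, 8, 9, 11 or 12 was left out, with log2 fold changes of 0.86 to 1.23 and adjusted p of 0.0508 to 0.17, and when the 6 cTEC libraries were fitted alone (adjusted p = 0.126). The remaining 5, Adamts1, Adamts4, Adamts5, Adamts15 and Adamts20, did not pass. Adamts1 averaged 54.3 ± 9.12 CPM in Cre cTEC and 66.96 ± 14.5 CPM in control cTEC, Adamts4 10.5 ± 2.37 CPM in Cre and 6.89 ± 2.37 CPM in control cTEC, and Adamts5 4.00 ± 3.44 CPM in Cre and 4.77 ± 1.34 CPM in control cTEC.

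Adamts10, which acts on fibrillin microfibrils, was the ADAMTS gene with the highest level per kb in cTEC, and it was at 164, 99.2 and 123 CPM in Cre cTEC against 73.3, 93.6 and 88.7 CPM in control cTEC. Library 10 was highest, and library 11 lay just above the highest control (log2 fold change 0.60, SE 0.18, adjusted p = 0.047). It missed the threshold without library 1, 6, 7, 8, 9, 10 or 12 (adjusted p of 0.0512 to 0.271), and without library 10 the value was 0.38. Adamts7, which cuts a cartilage matrix protein, was at 6.02, 7.53 and 7.58 CPM in Cre cTEC, against 4.82, 3.35 and 3.84 CPM in control cTEC (log2 fold change 0.80, SE 0.21, adjusted p = 0.0213), and missed the threshold without library 8, 9 or 12 (0.69 to 0.77, adjusted p of 0.0723 to 0.0926) and with the cTEC libraries fitted alone (adjusted p = 0.125). Adamts3, a procollagen propeptidase that also takes part in the activation of the lymphatic growth factor VEGF-C, was at 11.6, 11.4 and 8.02 CPM in Cre cTEC, against 5.68, 5.86 and 7.25 CPM in control cTEC. Its groups did not overlap, yet its call (log2 fold change 0.71, SE 0.22, adjusted p = 0.0482) was lost without library 1, 2, 3, 6, 7, 8, 9, 10 or 11 (0.61 to 0.84, adjusted p of 0.0508 to 0.197). It was lost too with limma voom, which gave 0.46 (adjusted p = 0.254), and with the cTEC libraries fitted alone (adjusted p = 0.0905).

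Adamts19, a little-studied member, moved the other way, at 12.4, 17.8 and 12.1 CPM in Cre cTEC against 29.8, 19.4 and 29.7 CPM in control cTEC. The lowest control library, 8, lay just above the highest Cre library, 11, and the gene fell by 0.92 on the log2 scale (SE 0.19, adjusted p = 0.00376). Without any 1 library it fell by 0.82 to 1.12 and stayed past the threshold.

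The ADAMTS-like genes moved in both directions. Adamtsl5, whose promoter is shown above, was at 1.00, 3.47 and 1.60 CPM in Cre cTEC, against 10.5, 8.54 and 6.83 CPM in control cTEC, a fall of 2.17 on the log2 scale (SE 0.38, adjusted p = 0.000924), the largest change of any member called in this comparison. Library 11 was the highest of the Cre libraries, and without any 1 library the gene fell by 1.80 to 2.75. Adamtsl3 was at 4.35, 9.26 and 6.85 CPM in Cre cTEC, against 18.4, 13.1 and 11.7 CPM in control cTEC. It fell by 1.11 (SE 0.32, adjusted p = 0.0345), and by 0.84 to 1.16 with the call lost (adjusted p of 0.0705 to 0.202) without library 7, 8, 10 or 12, and the filter of 5 CPM gave an adjusted p of 0.0501. Adamtsl1 was at 34.6, 33.2 and 38.3 CPM in Cre cTEC, against 18.9, 26.1 and 27.2 CPM in control cTEC. It rose by 0.55 on the log2 scale (SE 0.14, adjusted p = 0.0186), a call lost without library 7 (0.41, adjusted p = 0.103) or 12 (0.49, adjusted p = 0.0815). Adamtsl2 and Adamtsl4, known in humans from skeletal and lens disorders of microfibrils, did not pass.

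**Figure D2:**
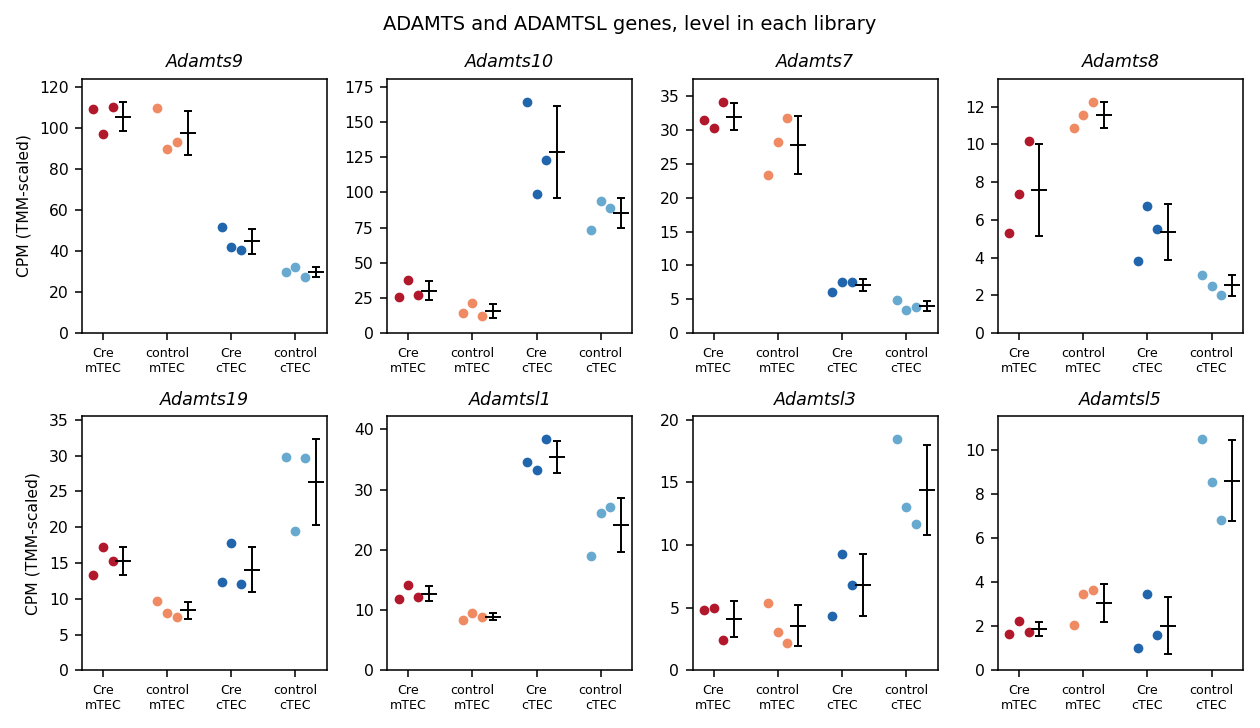
TMM-scaled CPM of 8 ADAMTS and ADAMTSL genes in each of the 12 libraries, by group (points: libraries; bars: mean ± SD of 3). Adamts19 is lower in Cre cTEC and higher in Cre mTEC than in the matching controls, and Adamtsl5 is lower in all 3 Cre cTEC libraries than in all 3 control cTEC libraries.

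Of the ADAM sheddases, 1 passed in cTEC. Adam19, which cuts neuregulins, was at 42.8, 27.6 and 22.7 CPM in Cre cTEC, against 18.2, 17.6 and 20.6 CPM in control cTEC. The groups did not overlap, with library 10 far above the others (log2 fold change 0.74, SE 0.20, adjusted p = 0.0226). Without library 10 the value was 0.41 (adjusted p = 0.217), and the call was also lost without library 7 (0.72, adjusted p = 0.0814) or 8 (0.69, adjusted p = 0.0858). With limma voom it was 0.42 (adjusted p = 0.162). The main sheddases did not pass. Adam10, which cuts Notch receptors, averaged 187 ± 28.1 CPM in Cre cTEC and 197 ± 22.4 CPM in control cTEC, and Adam17, which releases tumour necrosis factor and ligands of the EGF receptor, 108 ± 9.53 CPM in Cre and 115 ± 5.95 CPM in control cTEC. Adam15 and Adam28 lay lower in each Cre library than in any control, at 61.4 ± 6.26 and 165 ± 5.76 CPM in Cre cTEC against 77.1 ± 4.80 and 198 ± 12.0 CPM in control cTEC, and missed the threshold (adjusted p = 0.0659 and 0.113). Adam12, at 2.57, 10.2 and 3.64 CPM in Cre cTEC and 2.93, 2.85 and 2.56 CPM in control cTEC, was high in library 11 alone.

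Other cell markers moved with these changes. In Cre cTEC, 6 of 10 cortical markers were higher and Foxn1 lower. The medullary list summed to 1301 to 1521 CPM in Cre cTEC and 2328 to 2629 CPM in control cTEC, with Fezf2, Cd40 and Tnfrsf11a higher, the keratins Krt5 and Krt14 lower, and Ccl21a at 0 in every cTEC library. The fibroblast list summed to 1182 to 1678 CPM in Cre cTEC and 2540 to 2929 CPM in control cTEC (Dcn and Lum lower, Col3a1 higher, 8 of 8 listed genes detected). The neutrophil list summed to 13.5 to 41.2 CPM in Cre cTEC, highest in library 10, and 13.7 to 18.9 CPM in control cTEC, with S100a8 and S100a9 higher by edgeR (1 gene of the list by DESeq2 and 0 by limma voom), and the macrophage and dendritic cell list to 55.9 to 63.7 CPM in Cre and 58.2 to 83.3 CPM in control cTEC, with 0 of 11 called by edgeR, DESeq2 or limma voom (0 at an unadjusted p under 0.05 with edgeR). The part of these cell types in the protease changes was not tested. The 13 called fell to 7 without library 7 and to 7 without library 8. Calls over all genes in cTEC fell as well, from 971 higher and 584 lower to 661 and 361 without library 7. Without library 8 they were 783 and 437.

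In medullary cells, 3 members rose and 1 fell of 63 tested, 6.35% of the members, where 2.07% of all genes passed, 0.585% higher and 1.49% lower. At an unadjusted p under 0.05 there were 16 (25.4%), against 14.6% of all genes. Adamts10 rose here as in the cortex, at 25.4, 37.6 and 27.0 CPM in Cre mTEC against 14.4, 21.1 and 11.9 CPM in control mTEC. The groups did not overlap (log2 fold change 0.92, SE 0.21, adjusted p = 0.0289). Adamts20, a versican-cutting relative of Adamts9, was at 9.54, 7.95 and 9.35 CPM in Cre mTEC, against 4.30, 2.95 and 4.82 CPM in control mTEC, also without overlap (log2 fold change 1.16, SE 0.28, adjusted p = 0.0349). Adamts19 was at 13.3, 17.2 and 15.3 CPM in Cre mTEC, against 9.68, 8.07 and 7.42 CPM in control mTEC, and rose by 0.86 on the log2 scale (SE 0.20, adjusted p = 0.0306), opposite to its fall in the cortex.

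Timp1 was the inhibitor that changed in the medulla. It was at 28.6, 21.7 and 20.1 CPM in Cre mTEC, against 47.5, 44.8 and 40.1 CPM in control mTEC. The groups lay well apart, and the gene fell by 0.91 on the log2 scale (SE 0.22, adjusted p = 0.0334). Mmp9 was higher in all 3 Cre mTEC libraries, at 642, 623 and 525 CPM against 423.5, 400.4 and 390.5 CPM in control mTEC, and just missed the threshold (log2 fold change 0.56, SE 0.15, adjusted p = 0.0618). Mmp15 overlapped, at 57.4, 77.2 and 77.9 CPM in Cre mTEC and 76.8, 72.7 and 65.5 CPM in control mTEC, as did Timp2, at 217, 268 and 175 CPM in Cre mTEC and 221, 209.8 and 203 CPM in control mTEC. Adam8 averaged 270.3 ± 69.7 CPM in Cre mTEC and 352 ± 34.2 CPM in control mTEC, with library 6 of the Cre group among the controls (adjusted p = 0.195).

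None of the 4 medullary calls held under every alternative. Adamts10 was lost without library 1, 3, 4 or 5 (log2 fold change 0.72 to 0.98, adjusted p of 0.0513 to 0.222), Adamts19 without library 1, 2, 3, 4 or 5 (0.76 to 0.98, adjusted p of 0.0739 to 0.182) and Adamts20 without any 1 of libraries 1 to 6 (0.97 to 1.29, adjusted p of 0.0541 to 0.165) and under the filter of 5 CPM (adjusted p = 0.0561). Timp1 was lost without library 1, 2, 3, 5 or 6 (falls of 0.82 to 0.98, adjusted p of 0.0701 to 0.18). The count fell to 0 without library 1, 3 or 5 and to 1 without library 2 or 4. Calls over all genes fell as well, from 101 higher and 257 lower to 13 and 65 without library 1. They were 24 and 80 without library 3, and 20 and 61 without library 5. Without library 2 they were 44 and 136, and without library 4 they were 29 and 131. Beside these member values, the macrophage and dendritic cell list summed to 234 to 364 CPM in Cre mTEC and 286 to 373 CPM in control mTEC, the neutrophil list to 90.9 to 133 CPM in Cre and 159.5 to 168 CPM in control mTEC. Of these lists edgeR and DESeq2 called 0 genes in mTEC (3 at an unadjusted p under 0.05, 2 of them macrophage and dendritic cell genes and 1 a neutrophil gene), and limma voom called 2 of the macrophage and dendritic cell list and 3 of the neutrophil list lower. Of the cortical markers, edgeR called 2 and DESeq2 1 lower in Cre mTEC, and limma voom called 2 higher and 3 lower. Of the medullary markers, edgeR and DESeq2 called 0 and limma voom 4 lower. The part of these cell types in the medullary changes was not tested.

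**Figure D3:**
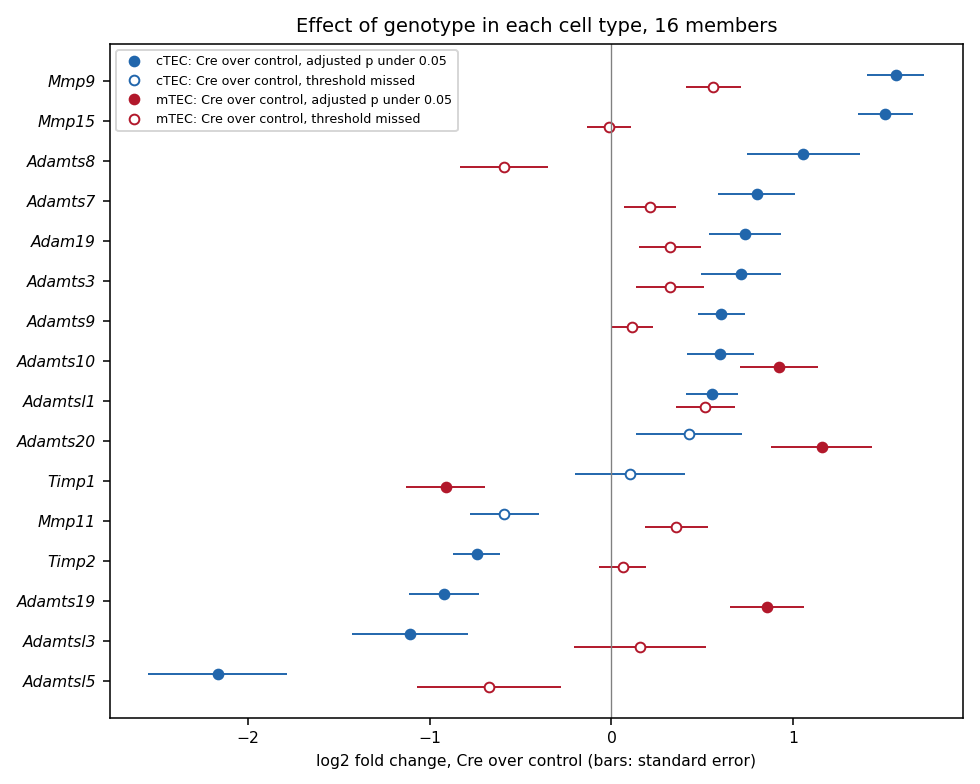
Log2 fold change of Cre over control in cTEC (blue) and in mTEC (red) for the 16 members called in either cell type or in the test of the difference; bars show the standard error, filled points passed the adjusted threshold and open points missed it. Adamts19 lies at -0.92 in cTEC and 0.86 in mTEC, and Mmp15 at 1.51 in cTEC and close to 0 in mTEC.

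Whether the effect of genotype differed between the cell types was tested directly, as the cTEC effect minus the mTEC effect. The test called 6 of 63 members, 3 with a higher and 3 with a lower effect in cTEC, 9.52% of the members, where 4.01% of all genes passed, 2.92% higher and 1.08% lower. Adamts19 had the largest difference, with log2 fold changes of -0.92 in cTEC and 0.86 in mTEC (difference -1.78, SE 0.28, adjusted p = 0.00187). Mmp15 had effects of 1.51 in cTEC and -0.01 in mTEC (difference 1.52, SE 0.20, adjusted p = 0.000647), and Mmp9 of 1.57 in cTEC and 0.56 in mTEC (difference 1.00, SE 0.22, adjusted p = 0.0116). These 3 held under each alternative run.

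Adamts8 had effects of 1.06 in cTEC and -0.59 in mTEC, where it was at 5.30, 7.35 and 10.2 CPM in Cre mTEC against 10.8, 11.6 and 12.2 CPM in control mTEC (difference 1.65, SE 0.40, adjusted p = 0.0217). Timp2 had effects of -0.74 in cTEC and 0.06 in mTEC (difference -0.80, SE 0.18, adjusted p = 0.0167). Mmp11 had effects of -0.59 in cTEC and 0.36 in mTEC, neither past the threshold by itself (difference -0.95, SE 0.26, adjusted p = 0.0428). Adamts8 missed the threshold without library 3, 8 or 9 (adjusted p of 0.0508 to 0.0741), Timp2 without library 3 (-0.77, adjusted p = 0.0582) or 5 (-0.63, adjusted p = 0.0688), and Mmp11 without library 1, 3, 4, 5, 7, 8, 9 or 10 (-0.98 to -0.77, adjusted p of 0.0575 to 0.142) or with DESeq2 size factors (adjusted p = 0.0534). The count was 3 without library 3 and 14 without library 11. Calls over all genes moved as well, from 505 higher and 187 lower to 337 and 100 without library 3. Without library 11 they were 1082 and 562.

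Averaged over both cell types, 12 of 63 members passed, 9 higher and 3 lower in Cre libraries (19.0%, where 7.21% of all genes passed, 3.60% higher and 3.61% lower). This average draws on the libraries of the comparisons above, so it adds no separate evidence for the genes already named. Adam8 passed in the average and in neither cell type, at -0.42 on the log2 scale (SE 0.12, adjusted p = 0.0412), from effects of -0.45 in cTEC and -0.38 in mTEC. In cTEC it was at 12.4, 13.9 and 13.3 CPM in Cre against 17.0, 21.1 and 15.8 CPM in control libraries. It missed the threshold without library 1, 3, 4, 5, 7, 8, 9, 10 or 12 (-0.46 to -0.35, adjusted p of 0.0502 to 0.135). Adamts10 (0.76, SE 0.14, adjusted p = 0.00225), Adamtsl1 (0.53, SE 0.11, adjusted p = 0.00468) and Mmp9 (1.06, SE 0.11, adjusted p = 7.94e-06) rose in the average under each alternative run, as did Mmp15 (0.75), and Adamtsl5 fell (-1.42, SE 0.28, adjusted p = 0.00325). Adamtsl1 had similar effects in both cell types, 0.55 in cTEC and 0.52 in mTEC, where it was at 11.8, 14.2 and 12.2 CPM in Cre mTEC against 8.42, 9.49 and 8.86 CPM in control mTEC. Adam19 (0.53), Adamts3 (0.52), Adamts7 (0.51), Adamts9 (0.36) and Adamts20 (0.79) rose and Timp2 (-0.34) fell in the average as well. Those calls were lost without library 3 for Adam19, 9 for Adamts9, 8, 9 or 12 for Adamts7, 2, 4, 8 or 9 for Adamts20, 2, 3, 5, 7, 8, 10 or 11 for Adamts3 and 1, 2, 3, 6, 7, 9 or 12 for Timp2, with adjusted p of 0.0512 to 0.118, and with limma voom for Adamts3 (adjusted p = 0.0526). The count fell to 7 without library 9, where calls over all genes fell from 621 higher and 624 lower to 377 and 465.

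More members were called between medulla and cortex than between genotypes, as was true of all genes. In Cre cells, 28 of 63 members were higher and 10 lower in mTEC than in cTEC (60.3%, where 49.6% of all genes passed, 25.1% higher and 24.5% lower). In control cells 31 were higher and 15 lower (73.0%, where 59.2% of all genes passed, 29.3% higher and 30.0% lower). The median log2 fold change, mTEC over cTEC, was 0.57 in Cre and 0.37 in control cells, against -0.02 and -0.05 for all genes. The Cre and the control contrast use separate libraries, and each is given on its own.

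Adam8 showed the largest difference of all members. It was at 224, 236 and 350.5 CPM in Cre mTEC against 12.4, 13.9 and 13.3 CPM in Cre cTEC, or 4.36 on the log2 scale (SE 0.18, adjusted p = 4.41e-13). In control cells it was at 349.9, 319 and 388 CPM in mTEC against 17.0, 21.1 and 15.8 CPM in cTEC (log2 fold change 4.29, SE 0.17, adjusted p = 2.42e-13). The cell types were far apart in both genotypes. The sheddases Adam9, Adam10, Adam12, Adam19 and Adam33 were also higher in mTEC of both genotypes, by 0.44 to 1.73 in Cre and by 0.58 to 2.64 in control cells on the log2 scale, the Adam9 call in Cre cells being lost without library 6 (0.33, adjusted p = 0.0516). Adam12 in Cre cells was 1.32 with library 11 and 2.09 without it. Adam17 was 1.25-fold higher in control mTEC (adjusted p = 0.0125; 0.24 on the log2 scale without library 1, adjusted p = 0.0839; 0.49 with no filter on low counts) and missed the threshold in Cre cells (adjusted p = 0.0511).

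The cortex held more of the other sheddases. Adam28, known from lymphocytes and epithelia, was at 58.0, 58.8 and 53.9 CPM in Cre mTEC against 159.6, 163 and 171 CPM in Cre cTEC, and at 52.4, 49.0 and 44.2 CPM in control mTEC against 211, 188 and 193.5 CPM in control cTEC. The log2 fold changes were -1.53 (SE 0.10, adjusted p = 3.11e-10) in Cre and -2.02 (SE 0.10, adjusted p = 4.5e-12) in control cells. Adam15 was lower in mTEC too (log2 fold changes -1.41 in Cre and -1.63 in control cells). Adam11 and Adam23, which lack a working protease site and are known from the nervous system, were higher in mTEC, with log2 fold changes of 3.18 and 2.25 in Cre and 2.98 and 2.23 in control cells, while Adam22 of the same kind did not pass in either. Of the other ADAMs tested, Adam7 was higher and Adam21 lower in control mTEC, at 2.65 ± 1.09 and 0.532 ± 0.329 CPM against 0.746 ± 0.0803 and 2.94 ± 0.241 CPM in control cTEC, and neither passed in Cre cells. Adam7 missed the threshold without library 1 (1.43, adjusted p = 0.0995), 7 (1.82, adjusted p = 0.0508) or 9 (1.79, adjusted p = 0.0556).

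**Figure D4:**
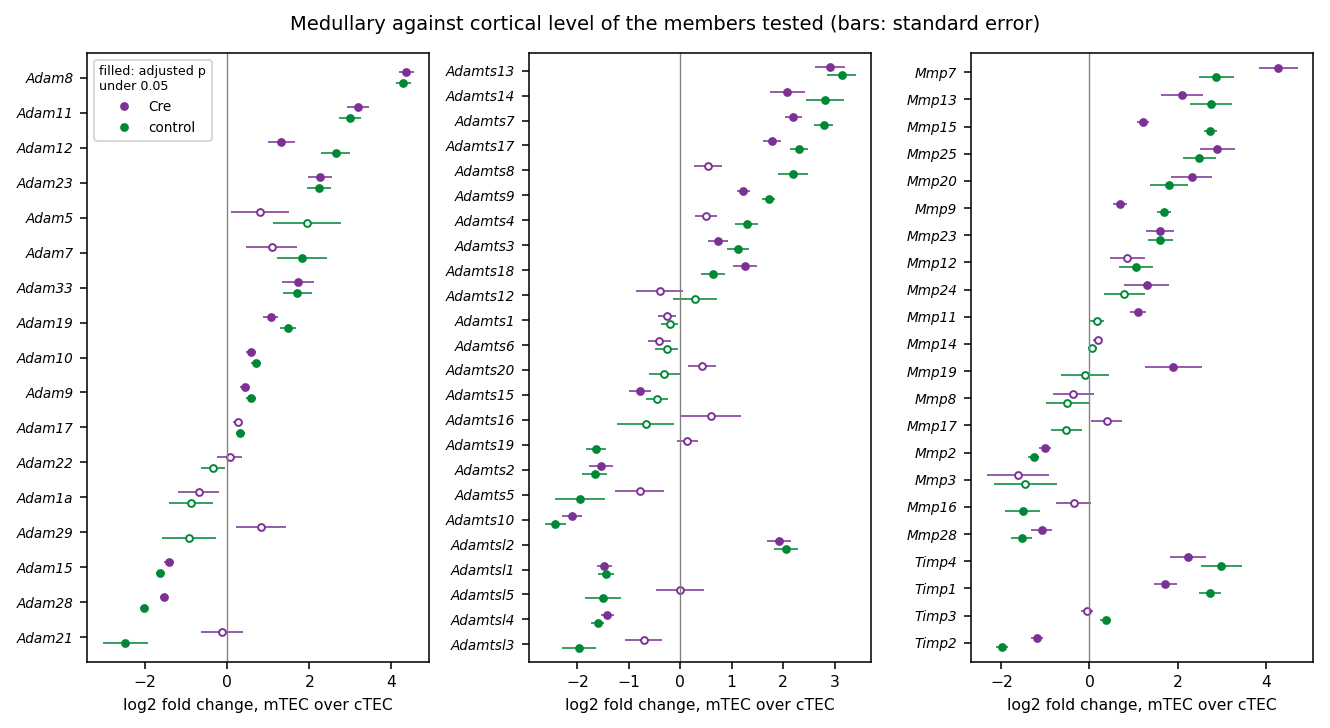
Log2 fold change of mTEC over cTEC for the 63 members tested, in Cre (purple) and control cells (green), by family; bars show the standard error, filled points passed the adjusted threshold and open points missed it. Adam8, Mmp7 and Adamts13 lie far to the medullary side and Adamts10, Timp2 and Adam28 to the cortical side in both genotypes.

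MMPs and their inhibitors divided in the same manner. The gelatinases went opposite ways. Mmp9 was higher in mTEC, by 0.69 (SE 0.15, adjusted p = 0.000846) in Cre and by 1.70 (SE 0.16, adjusted p = 2.44e-08) in control cells on the log2 scale. Mmp2 was at 93.1, 118 and 83.1 CPM in Cre mTEC against 197, 174 and 219 CPM in Cre cTEC, and at 84.1, 80.9 and 68.6 CPM in control mTEC against 179, 187 and 196 CPM in control cTEC. It was lower in mTEC without overlap in both genotypes (log2 fold changes -1.01 and -1.27, SE 0.13 each, adjusted p = 2.32e-06 and 8.97e-08). Mmp14 did not pass in either.

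Mmp7, matrilysin, which many epithelia secrete, was at 7.72, 6.00 and 9.49 CPM in Cre mTEC against 0.335, 0.386 and 0.437 CPM in Cre cTEC, a difference of 4.29 on the log2 scale (SE 0.44, adjusted p = 1.29e-07). In control cells it was at 4.93, 6.66 and 6.51 CPM in mTEC against 1.55, 0.503 and 0.427 CPM in cTEC (log2 fold change 2.87, SE 0.40, adjusted p = 4.93e-06). Its cTEC values rest on few counts. Mmp13, Mmp15, Mmp20 (the enamel protease), Mmp23 and Mmp25, a membrane-type MMP of leukocytes, were higher in mTEC of both genotypes, by 1.22 to 2.90 in Cre and by 1.61 to 2.76 in control cells. Mmp11 was higher in Cre mTEC only by its own test (log2 fold change 1.11, SE 0.18, adjusted p = 5.32e-05), as were Mmp19 and Mmp24, whose levels stayed under 3 CPM. Mmp19 was lost without library 5, 10 or 12 (1.41 to 1.89, adjusted p of 0.0584 to 0.129), and Mmp24 without library 1, 3, 5, 6, 9, 10 or 12 (0.91 to 1.32, adjusted p of 0.0527 to 0.193), by DESeq2 (adjusted p = 0.0588) and with the 6 Cre libraries alone (adjusted p = 0.0921), while limma voom gave 2.12. Mmp12 passed in control cells alone (1.05, adjusted p = 0.0224), and not without library 2 (0.86, adjusted p = 0.106), 7 (0.91, adjusted p = 0.0829) or 9 (1.02, adjusted p = 0.0645). Mmp28, an epithelial MMP, was lower in mTEC of both genotypes, and Mmp16, a membrane-type MMP, in control cells.

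Timp1 and Timp2 were placed opposite to each other. Timp1 was higher in mTEC, by 1.72 (SE 0.26, adjusted p = 1.86e-05) in Cre and by 2.73 (SE 0.26, adjusted p = 2.7e-08) in control cells on the log2 scale. Timp2 was lower in mTEC, with log2 fold changes of -1.19 (SE 0.13, adjusted p = 3.56e-07) in Cre and -1.99 (SE 0.13, adjusted p = 2.34e-10) in control cells. Timp4 was at 2.88, 3.60 and 6.51 CPM in Cre mTEC against 0.893, 1.16 and 0.729 CPM in Cre cTEC, and higher in mTEC of both genotypes (log2 fold changes 2.24 and 2.99). Timp3 was higher in control mTEC only by its own test (0.37, SE 0.13, adjusted p = 0.0191), and not without library 1 (0.34, adjusted p = 0.068) or 7 (0.32, adjusted p = 0.0544).

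Among the ADAMTS genes, Adamts13, which cuts von Willebrand factor, was at 7.27, 9.15 and 7.32 CPM in Cre mTEC against 1.34, 0.772 and 0.874 CPM in Cre cTEC, a difference of 2.91 on the log2 scale (SE 0.29, adjusted p = 9.35e-08). In control cells it was at 11.9, 11.3 and 12.4 CPM in mTEC against 1.72, 1.34 and 0.995 CPM in cTEC (log2 fold change 3.13, SE 0.28, adjusted p = 1.05e-08). Adamts3, Adamts7, Adamts9, Adamts14, Adamts17 and Adamts18 were higher in mTEC of both genotypes, by 0.73 to 2.20 in Cre and by 0.64 to 2.82 in control cells, though Adamts18 in control cells was lost without library 2 (0.47, adjusted p = 0.135) or 7 (0.52, adjusted p = 0.102). The 3 procollagen propeptidases were split, with Adamts3 and Adamts14 higher and Adamts2 lower in mTEC of both genotypes (Adamts2 log2 fold changes -1.54 in Cre and -1.66 in control cells). Adamts10 was lower in mTEC, with log2 fold changes of -2.11 (SE 0.20, adjusted p = 3.62e-08) in Cre and -2.43 (SE 0.21, adjusted p = 6.42e-09) in control cells. Adamts15 was lower in Cre mTEC alone by its own test (-0.78, SE 0.22, adjusted p = 0.00517). Adamts4, Adamts8 and, on the cortical side, Adamts5 and Adamts19 passed in control cells and not in Cre cells; Adamts19 was at 15.3 ± 1.96 CPM in Cre mTEC and 14.1 ± 3.19 CPM in Cre cTEC, against 8.39 ± 1.16 CPM in control mTEC and 26.3 ± 5.96 CPM in control cTEC (SD, n = 3 each). Of the 5 ADAMTS-like genes, Adamtsl2 was higher in mTEC of both genotypes and Adamtsl1 and Adamtsl4 lower, while Adamtsl3 and Adamtsl5 were lower in control mTEC and did not pass in Cre cells.

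Several members higher in mTEC, among them Adam8, Mmp9 and Mmp25, are also known from macrophages and granulocytes. So is Mmp12, which passed in control cells alone. The macrophage and dendritic cell list summed to 234 to 364 CPM in Cre mTEC and 55.9 to 63.7 CPM in Cre cTEC, and to 286 to 373 CPM in control mTEC and 58.2 to 83.3 CPM in control cTEC, most of it Lyz2 (213 CPM on average in Cre mTEC and 248 CPM in control mTEC). Of its 11 genes, 7 were higher and 1 lower in Cre mTEC, and 8 were higher and 1 lower in control mTEC; none was at 0 in a whole group. The neutrophil list summed to 90.9 to 133 CPM in Cre mTEC and 13.5 to 41.2 CPM in Cre cTEC, and to 159.5 to 168 CPM in control mTEC and 13.7 to 18.9 CPM in control cTEC. The fibroblast list ran the other way, with 5 of 8 genes lower and 2 higher in mTEC of each genotype. It summed to 273 to 306 CPM in Cre mTEC and 1182 to 1678 CPM in Cre cTEC, and to 292 to 345 CPM in control mTEC and 2540 to 2929 CPM in control cTEC, most of it Dcn, beside the cortical levels of Timp2, Mmp2, Adamts2 and Adamts10. Of 9 thymocyte genes tested, 5 were lower in Cre mTEC and 8 in control mTEC (sums of 92.8 to 134 CPM in Cre mTEC and 158 to 196 CPM in Cre cTEC, and of 87.1 to 110.1 CPM in control mTEC and 137 to 221 CPM in control cTEC). Of the endothelial and the B cell genes, 3 each were higher in mTEC of each genotype, with list sums of at most 54.8 and 21.6 CPM in any library. The part of these cell types in the medullary and cortical levels was not tested.

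Genes that work with these proteases were followed in a list of 52, of which 50 were tested: regulators of ADAMs, shed ligands and the EGF receptor, regulators of matrix proteases, and related metalloproteases and substrates. The list was drawn up with earlier results of these data known, so its shares beside those of all genes are descriptive only. In Cre cTEC, 6 rose and 3 fell, 18.0% of those tested against 9.01% of all genes. Rhbdf2, which encodes iRhom2, the carrier of ADAM17 to the cell surface, was at 112, 70.4 and 95.2 CPM in Cre cTEC against 49.4, 56.6 and 47.5 CPM in control cTEC (log2 fold change 0.86, SE 0.14, adjusted p = 0.00054). Tspan5, a tetraspanin that guides ADAM10, was at 89.6, 60.2 and 59.6 CPM in Cre cTEC against 36.3, 37.7 and 36.0 CPM in control cTEC (log2 fold change 0.94, SE 0.15, adjusted p = 0.000441). Both lay above the controls in every Cre library, while the levels of Adam17 and Adam10 in cTEC overlapped between the genotypes.

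Spock2, a matrix proteoglycan of the testican family, was at 362, 220.4 and 234 CPM in Cre cTEC against 119.7, 158 and 128 CPM in control cTEC (log2 fold change 1.01, SE 0.17, adjusted p = 0.000808). Thsd4, an ADAMTS-like protein also called ADAMTSL6, Pcsk6, a proprotein convertase, and Plat, the tissue plasminogen activator, rose as well. Hbegf, a shed ligand of the EGF receptor, Spock1 and Papln, a papilin related to the ADAMTS proteins, fell. In Cre mTEC, 0 of the 50 passed with edgeR, where 2.07% of all genes passed, and 0 with DESeq2. At an unadjusted p under 0.05 there were 9 with edgeR, against 14.6% of all genes. With limma voom 4 were higher and 2 lower, where 573 and 1099 of all 17268 genes were. The test of the difference called 2 of the 50 (4.00%), the same share as over all genes (4.01%). The cTEC effect exceeded the mTEC effect for these, Rhbdf2 (difference 1.00, SE 0.20, adjusted p = 0.00714) and Thsd4 (0.87, SE 0.18, adjusted p = 0.00938). Between cell types, 24 were higher and 11 lower in mTEC in Cre cells, and 27 higher and 10 lower in control cells (70.0% and 74.0% of those tested, against 49.6% and 59.2% of all genes). Adamdec1, a secreted ADAM relative, was on the cortical side in both (log2 fold changes -2.39 in Cre and -2.49 in control cells).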

How the data were processed

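The authors deposited raw counts by gene symbol for 12 libraries. The build mm9 and the tools STAR, HTSeq and edgeR were named, per the submitters' processing notes; no version, annotation or strand setting is given in the sources used here. Per the labels, thymuses were digested with Liberase TH and DNase, cells were sorted, RNA came from a Nucleospin XS kit and libraries from the SMARTer low-input kit, which marks no strand. Here edgeR 4.0.16 (R 4.3.3) was run on the counts: TMM scaling, filterByExpr by group (17268 genes kept), a quasi-likelihood model of all 4 groups (8 residual degrees of freedom), two-sided tests, Benjamini-Hochberg adjustment over all genes tested and a threshold of 0.05. It was tested on simulated counts. Each standard error (SE) of an edgeR value, also in the figures, is approximate. It is the absolute log2 fold change divided by the square root of the test's F statistic. CPM are counts scaled to the TMM-adjusted library total, and reads carry no molecular identifiers, so depth limits rare genes most. Levels per kb use the longest GENCODE M21 transcript, and promoters and overlapping genes come from RefSeq (GRCm38.p6). Library numbers do not show which libraries share an animal, so nothing was paired and all libraries were treated as independent.

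Members, lists, roles and tests were chosen with earlier results of these data known. Named in full were up to 10 members per direction and comparison by adjusted p, and a set of members listed by name. Alternatives were limma 3.58.1 (voom, weighted by library quality), DESeq2 1.42.0, its size factors in edgeR, keeping every gene, keeping genes with 5 CPM in at least 3 libraries, fitting the 6 libraries of a contrast alone, and leaving out each library in turn.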

Additional observations from a re-analysis of the deposited data

Results flagged for a closer look

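For 6 members the effect of genotype differed between cTEC and mTEC by a test of the difference itself (cTEC effect minus mTEC effect, log2 scale, edgeR). The values were -1.78 for Adamts19 (adjusted p = 0.00187), 1.65 for Adamts8 (adjusted p = 0.0217), 1.52 for Mmp15 (adjusted p = 0.000647), 1.00 for Mmp9 (adjusted p = 0.0116), -0.95 for Mmp11 (adjusted p = 0.0428) and -0.80 for Timp2 (adjusted p = 0.0167). Adamts19 was called in both cell types in opposite directions, with no overlap between Cre and control libraries in either. Groups of 3 libraries are too small to test a single library as standing apart.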

How the results depend on the processing

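No result changed direction under the alternatives where it was called. For genotype in cTEC, 6 of 13 member calls (Adamts9, Adamts19, Adamtsl5, Mmp9, Mmp15 and Timp2) held in every alternative, for mTEC 0 of 4, for the average 5 of 12, for the difference 3 of 6, for mTEC over cTEC 35 of 38 in Cre and 41 of 46 in control cells. With voom the mTEC count was 11 against 4 (6 higher, 5 lower) and the difference 13 against 6 (4 higher, 9 lower). Leaving out 1 library gave 7 to 16 calls in cTEC, 0 to 6 in mTEC, 7 to 12 for the average and 3 to 14 for the difference, 36 to 47 for mTEC over cTEC in Cre and 42 to 48 in control cells. Calls in mTEC over all genes also moved. They were 101 higher and 257 lower as reported, 573 and 1099 with voom, 375 and 674 without the filter, 341 and 685 with 6 libraries, 126 and 468 with DESeq2, and 13 and 65 without library 1. For the difference they were 505 higher and 187 lower as reported, 894 and 227 with DESeq2, 811 and 587 with voom, 861 and 279 without the filter, and 1082 and 562 without library 11. The average gave 621 and 624 as reported and 1030 and 1035 with voom. No filter moved mTEC over cTEC in Cre cells to 4715 higher and 3053 lower, against 4339 and 4234. The cause was not tested. No paired analysis was possible because nothing in the labels ties a library to an animal. Whether cTEC and mTEC libraries came from the same mice is not known, and the tests treat them as independent. Members under a few CPM rest on few counts.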
